A study of Mus musculus with 16 samples.

Results

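miR-130a was measured on each of 16 single-colour Agilent mouse miRNA arrays of liver tumours and control livers from male C3H/HeJ mice, an inbred strain prone to liver tumours. It was found by its array name, mmu-miR-130a, which 2 probes of 1 miRNA among 566 mouse miRNAs carried. It was selected on its level, which was higher in Ha-ras tumours than in untreated controls, so that difference and every other one that uses the arrays of those groups are given as descriptions, with no test. The difference between Ctnnb1 tumours and phenobarbital controls uses none of those arrays and was tested, in a fit that takes its estimate of spread from all 16 arrays and, beside it, by a permutation test over the 10 arrays of these groups alone.

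The arrays fell into 4 groups by their titles. They were 3 Ha-ras-mutated tumours from mice kept without phenobarbital, 7 Ctnnb1-mutated tumours from mice given phenobarbital, 3 control livers from mice given phenobarbital (phenobarbital controls) and 3 control livers from mice without it (untreated controls, a name that refers to phenobarbital only). Tumours were started with the liver carcinogen diethylnitrosamine (DEN), given once at 10 or 90 µg per g body weight to animals 2 or 6 weeks old. After 2 weeks without treatment, the diet held 0.05% phenobarbital or none for 28 to 36 weeks, per the series' design text. The sample labels state 27 weeks of diet, and which dose, age or duration belonged to which sample is not settled. Whether controls received DEN, and which samples share an animal, the labels leave unsaid. P-values here cover only the spread from sample to sample, which may be technical. Tumour genotype and phenobarbital differ together between the tumour kinds, and their parts cannot be told apart.

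A miRNA is a short RNA that lowers the output of messenger RNAs by pairing with sites in them, mainly through its seed, bases 2 to 8 from its 5′ end. miRNAs that share a seed can share targets and form a family. miR-130a is known from human endothelial cells, where it represses the homeobox genes GAX and HOXA5 and favours vessel growth, and from fat cell precursors, where it represses the nuclear receptor PPARγ. Activated Ha-ras signals through the MAP kinase cascade, and mutated Ctnnb1 encodes a stable β-catenin that drives Wnt target genes. Phenobarbital is a liver tumour promoter that acts through the nuclear receptor CAR.

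The family sequences are shown because the seed decides which other miRNAs on the array could be set beside miR-130a. In each mature sequence from RefSeq (mouse build GRCm38.p6), written 5′ to 3′, capitals mark the seed.
miR-130a-3p: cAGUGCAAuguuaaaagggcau
miR-130b-3p: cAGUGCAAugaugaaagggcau
miR-301a-3p: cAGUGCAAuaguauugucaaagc
miR-721: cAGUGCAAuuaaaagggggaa
miR-148a-3p: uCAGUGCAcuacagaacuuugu
miR-148b-3p: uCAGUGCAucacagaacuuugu
miR-152-3p: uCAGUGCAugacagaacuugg
The array name miR-130a, which gives no arm, is the older name of miR-130a-3p. miR-130b-3p matches it at 20 of 22 positions and differs by U11A and A13G, with positions counted from the 5′ end, the base of miR-130a-3p given first. miR-301a-3p and miR-721 are identical to miR-130a-3p over the 9 leading bases. miR-148a-3p, miR-148b-3p and miR-152-3p carry the letters AGUGCA of the seed 1 base further from the 5′ end. Of the 8 names looked for, miR-301b-3p had no entry in the RefSeq table. In that table, 7 of 1679 mature mouse miRNAs (0.417%) have the seed of miR-130a.

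The hairpin from which miR-130a-3p is cut, shown to place the mature miRNA in its gene, is 64 bases long and lies at chr2:84741115-84741178 on the minus strand of GRCm38.p6, with the mature miRNA, its bases 42 to 63, in capitals.
Mir130a hairpin: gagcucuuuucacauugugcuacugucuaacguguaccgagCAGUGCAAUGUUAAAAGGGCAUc
The mature miRNA lies at chr2:84741116-84741137. No other gene of the annotation table contains the hairpin, and its neighbours are Ypel4 and the long noncoding RNA gene Gm19426.

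The arrays differed in brightness before scaling. The 75th percentile, taken over 117 mouse probes that every array detected, was 459 to 1248 in Ha-ras tumours, 463 to 877 in Ctnnb1 tumours, 386 to 644 in phenobarbital controls and 510 to 635 in untreated controls, in array signal units. Each array was divided by its own percentile, and levels are log2 of the scaled signal. Between 83 and 117 miRNAs were detected per array, and arrays of a group correlated with r between 0.926 and 0.993. The hepatocyte markers miR-122, miR-192 and miR-194 were detected in all 4 groups. Arrays lay on 3 slides scanned on 1 day. Slide 1 held Ha-ras replicate 1 beside all 7 Ctnnb1 tumours, slide 2 held Ha-ras replicates 2 and 3, phenobarbital replicates 4 and 5 and untreated replicate 1, and slide 3 held phenobarbital replicate 6 and untreated replicates 2 and 3.

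miR-130a was detected on 16 of 16 arrays. Its level ran highest in Ha-ras tumours, then in Ctnnb1 tumours, then in phenobarbital controls, and was lowest in untreated controls. In Ha-ras tumours it was 9.13, 9.10 and 9.28 in replicates 1, 2 and 3. In Ctnnb1 tumours the lowest level was 8.67, the median 8.95 and the highest 9.48. In phenobarbital controls it was 8.91, 8.79 and 8.85 in replicates 4, 5 and 6. In untreated controls it was 8.54, 8.42 and 8.49 in replicates 1, 2 and 3. The 3 untreated controls lay below all other arrays, and the highest and lowest single levels of the tumours both belonged to Ctnnb1 tumours. The range over all arrays was 1.06 on the log2 scale.

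**Figure D1:**
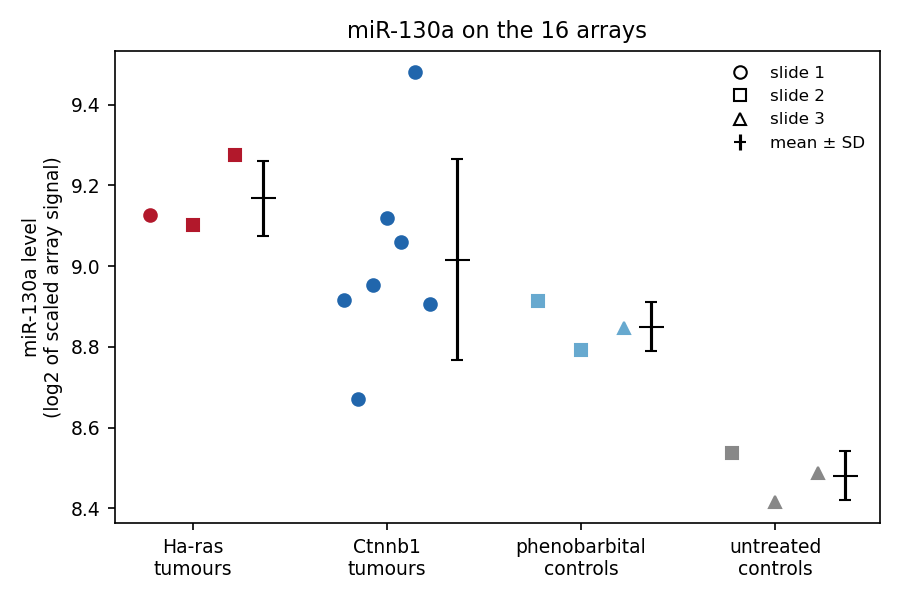
Level of miR-130a (log2 of the scaled array signal, y axis) on each array, by group along the x axis, with marker shape for the slide and a bar for the group mean ± SD. The 3 untreated controls sit between 8.42 and 8.54, below every other array, and the Ctnnb1 tumours spread from 8.67 to 9.48 across the Ha-ras tumours.

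miR-130a averaged 9.17 ± 0.09 in Ha-ras tumours and 8.48 ± 0.06 in untreated controls (SD, n = 3 each). The difference of 0.69 (SE 0.15) on the log2 scale is a 1.61-fold higher level in Ha-ras tumours. The groups did not overlap: every tumour was above every control, in 9 of 9 pairs, with a gap of 0.56 between the lowest tumour and the highest control. This contrast chose the miRNA, and 16.7% of the 96 tested miRNAs were likewise higher without overlap. In the order of differences miR-130a stood at rank 8 of 96, where the median miRNA had a difference of -0.06. On slide 2, which held 2 Ha-ras tumours and 1 untreated control, the difference was 0.65. It was 1.26 when arrays were scaled over all mouse probes, a scaling that moved the median of all tested miRNAs to 0.28. Ha-ras replicate 3, the highest of its group in miR-130a, was the dimmest Ha-ras array before scaling, and over the 16 arrays the level correlated with the log2 75th percentile with r = 0.20, given as a description.

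miR-130a averaged 9.02 ± 0.25 in Ctnnb1 tumours (SD, n = 7) and 8.85 ± 0.06 in phenobarbital controls (SD, n = 3). The difference was 0.17 (SE 0.13; 95% interval -0.11 to 0.44), a 1.12-fold higher level in Ctnnb1 tumours that did not pass limma's test after Benjamini-Hochberg adjustment over the 96 miRNAs (adjusted p = 0.471). An exact two-sided permutation test over the 120 arrangements of these 10 arrays gave p = 0.3. Of the 7 tumours, 5 lay above all 3 controls, and tumours were higher in 17 of 21 pairs, so the groups overlapped. In this comparison 0% of the tested miRNAs were called higher and 8.33% lower, and 1.04% were higher without overlap. Without Ctnnb1 replicate 6, which had the highest level, the difference was 0.09, and it was 0.39 (adjusted p = 0.688) when arrays were scaled over all mouse probes and 0.32 (adjusted p = 0.292) when they were scaled on the median of the detected probes. No slide held both groups. The Ctnnb1 tumours lay on slide 1 and their controls on slides 2 and 3, joined only through the other groups. With slide as a fixed block the difference was 0.21 (adjusted p = 0.848).

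The tumour kinds overlapped in miR-130a. Ha-ras tumours averaged 9.17 ± 0.09 (n = 3) and Ctnnb1 tumours 9.02 ± 0.25 (n = 7), a difference of 0.15 (SE 0.13) or 1.11-fold, smaller than the spread among Ctnnb1 tumours. Of the Ha-ras tumours, 0 lay above all Ctnnb1 tumours, while 5 Ctnnb1 tumours lay below all Ha-ras tumours. Between tumour kinds 6.25% of the tested miRNAs were higher in Ha-ras tumours without overlap. On slide 1 the single Ha-ras tumour was 0.11 above the mean of the Ctnnb1 tumours. The difference moved to 0.09 without Ctnnb1 replicate 2, 0.10 without Ha-ras replicate 3, 0.23 without Ctnnb1 replicate 6, 0.05 when arrays were scaled on the median of the detected probes, and 0.70 when they were scaled over all mouse probes.

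The control livers differed from each other in miR-130a. Phenobarbital controls averaged 8.85 ± 0.06 and untreated controls 8.48 ± 0.06 (SD, n = 3 each), a difference of 0.37 (SE 0.15) or 1.29-fold. Every phenobarbital control was above every untreated control, in 9 of 9 pairs, with a gap of 0.25, and 14.6% of the tested miRNAs were higher without overlap in this comparison. Within slides the difference was 0.31 on slide 2 and 0.39 on slide 3. It was 0.17 when arrays were scaled over all mouse probes and 0.16 with the total gene signal of the scanner software. The 0.69 between Ha-ras tumours and untreated controls and the 0.37 between phenobarbital and untreated controls share the 3 untreated control arrays, the lowest on the plot of levels. The difference for Ha-ras tumours against their controls exceeded that for Ctnnb1 tumours against theirs by 0.52 (SE 0.20), a value with no test because it uses the arrays that chose miR-130a.

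The probes of miR-130a gave like values. Each had 10 spots per array, all well above background on the 16 arrays, and no spot was saturated. The probes share a target and are not replicates. Their levels correlated with r = 0.98 over the 16 arrays, as a description. The difference of Ha-ras tumours from untreated controls was 0.70 with probe 1 and 0.68 with probe 2. That of Ctnnb1 tumours from phenobarbital controls was 0.20 with probe 1 and 0.13 with probe 2. Spots of a probe varied on an array by 1.88% to 8.77% (coefficient of variation, median 5.16%).

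**Figure D2:**
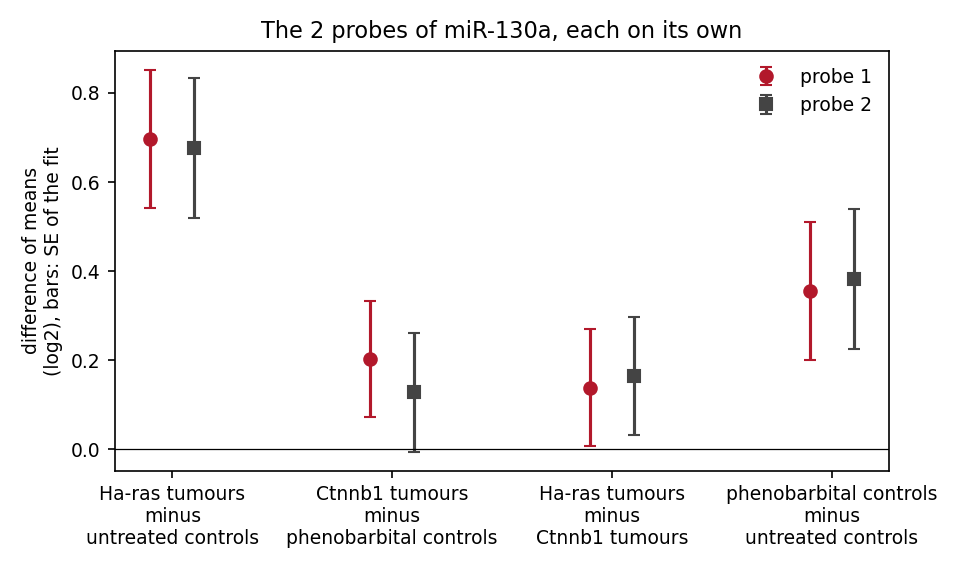
Difference of group means (log2, y axis) for each of the 2 probes of miR-130a in the 4 comparisons along the x axis, with bars for the SE of the fit. The probes lie within 0.08 of each other in every comparison, closer than the bars are long.

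The relatives with the same seed were dim. miR-130b, miR-301b and miR-721 were detected on 0 of 16 arrays and have no level here. miR-301a, a family member encoded on another chromosome, was detected on 11 of 16 arrays, those of 2 Ha-ras tumours, all 7 Ctnnb1 tumours, 1 phenobarbital control and 1 untreated control. Its level was 4.78, 4.95 and 4.90 in Ha-ras tumours and 4.63, 4.85 and 4.70 in untreated controls, where 4.63 is the floor set for low signals. In Ctnnb1 tumours the lowest level of miR-301a was 4.63, the median 4.92 and the highest 5.18, and in phenobarbital controls it was 4.97, 4.89 and 4.81. The groups overlapped, and miR-301a was not called in any comparison. It entered the tests only through the Ctnnb1 tumours, where its mean was highest, so its p-values are a description. Its difference was 0.15 in Ha-ras tumours against untreated controls (limma adjusted p = 0.428) and 0.03 in Ctnnb1 tumours against phenobarbital controls (limma adjusted p = 0.895). For Ha-ras tumours against untreated controls, other processing gave 0.78 with the deposited values, 0.50 with the total gene signal, 0.40 with scaling over all mouse probes, 0.30 with quantile scaling and -0.13 with normexp, and none of these passed. The levels of miR-301a lay close to the floor, and whether this changed the size of its differences was not tested. Between Ha-ras and Ctnnb1 tumours the difference of miR-301a was -0.04 (limma adjusted p = 0.868), while the authors' deposited log2 values, fitted in the same way, gave 0.81 (limma adjusted p = 0.0154). Of the tested miRNAs, 29.2% were called in Ha-ras tumours against untreated controls, 9.38% higher and 19.8% lower.

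The miRNAs whose seed is shifted by 1 base were brighter in part. miR-148a, a miRNA abundant in liver and known from mouse for a role in hepatocyte differentiation, was detected on all 16 arrays. Its level was 9.70, 9.24 and 9.34 in Ha-ras tumours and 9.79, 9.66 and 9.47 in untreated controls, with overlap, and the difference of -0.22 did not pass the test (limma adjusted p = 0.353). miR-148b was detected on 13 arrays, those of 3 Ha-ras tumours, 7 Ctnnb1 tumours, 1 phenobarbital control and 2 untreated controls. It entered the tests only through the tumour groups, where its mean was higher, so its p-values against controls are a description. Its level was 5.19, 5.24 and 5.15 in Ha-ras tumours and 4.81, 4.85 and 4.82 in untreated controls, near the floor of 4.63. These groups did not overlap, and 16.7% of the tested miRNAs were higher without overlap in this comparison. The miR-148b difference of 0.37 (SE 0.14) missed the threshold (limma adjusted p = 0.0533). It passed with quantile scaling (0.49, limma adjusted p = 0.0177), scaling on the median of detected probes (0.0291), all miRNAs detected on an array tested (0.0472), slide as a random block (0.0400) and a replicate block (0.0421). It also passed without Ctnnb1 replicate 3 (limma adjusted p = 0.0411) or 7 (0.0144), which share the estimate of spread. The difference was 0.64 with scaling over all mouse probes, 0.59 with the total gene signal and 0.83 with the deposited values, none of which passed, and it turned to -0.042 with the normexp background correction. Between Ha-ras and Ctnnb1 tumours miR-148b differed by 0.21 (limma adjusted p = 0.198), and by 0.27 without Ctnnb1 replicate 7 (limma adjusted p = 0.0323). There it also passed with quantile scaling (0.45, limma adjusted p = 0.0126) and with the deposited values (0.93, limma adjusted p = 0.0172), while it was 0.0062 with normexp. miR-152 was detected on 2 Ha-ras tumours, 2 Ctnnb1 tumours, 1 phenobarbital control and 0 untreated controls, and was not tested.

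**Figure D3:**
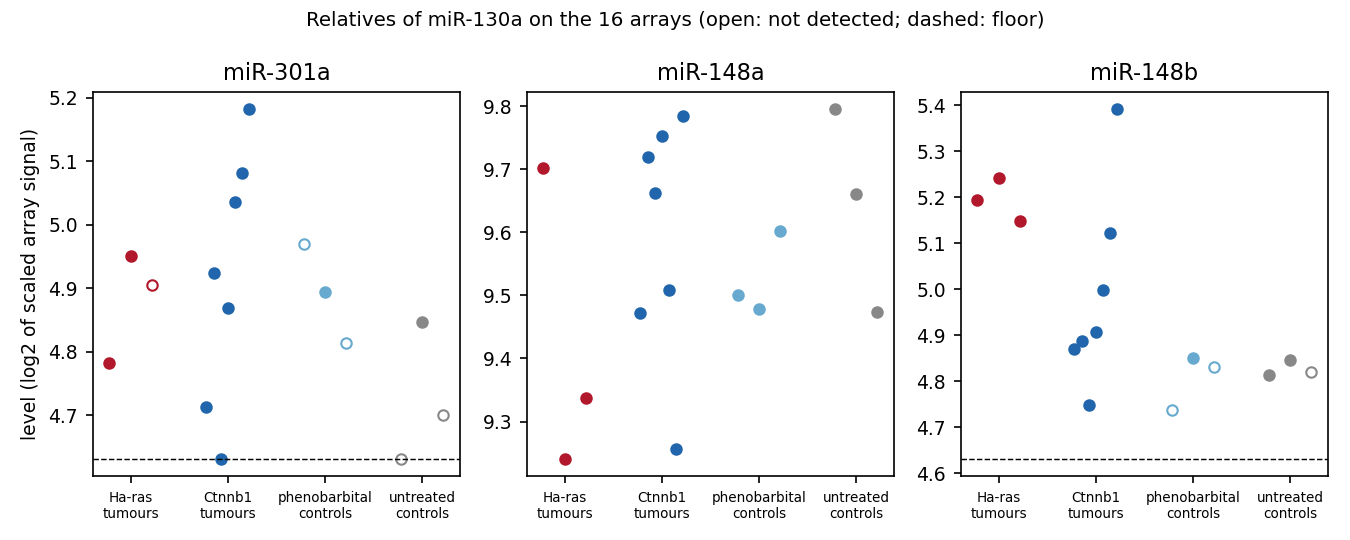
Levels (log2 of the scaled array signal, y axes with separate scales) of miR-301a, miR-148a and miR-148b on each array, by group, with open circles where the miRNA was not detected and a dashed line at the floor of 4.63. The miR-148b levels of the 3 Ha-ras tumours, 5.15 to 5.24, lie above those of the untreated controls, 4.81 to 4.85, and these 2 groups overlap for miR-301a and miR-148a. Between these 2 groups 16.7% of the tested miRNAs were higher without overlap.

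**Figure D4:**
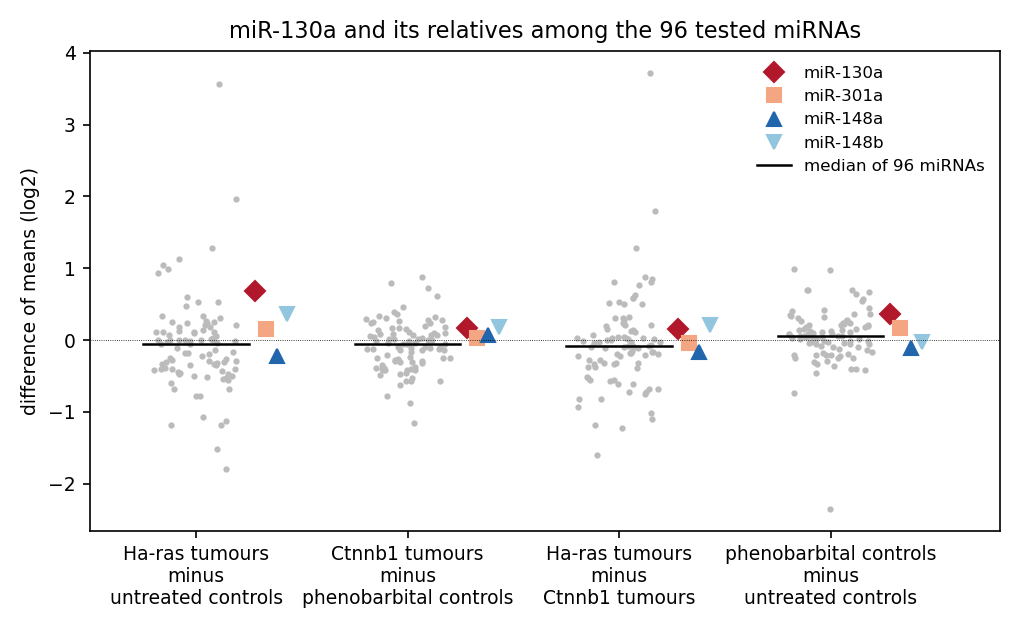
Difference of group means (log2, y axis) of the 96 tested miRNAs (grey points) in the 4 comparisons, with miR-130a and its relatives as coloured symbols and a line at the median. miR-130a lies above the median in each comparison, at rank 8 for Ha-ras tumours against untreated controls and at rank 23 for Ctnnb1 tumours against phenobarbital controls, and miR-301a lies closer to the median in each.

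Of 10 other miRNAs reported to act on vessel growth, as miR-130a does, 6 were bright enough to be tested. In Ha-ras tumours against untreated controls 0 of these 6 were called higher and 3 lower, where 9.38% of all tested miRNAs were called higher and 19.8% lower. Their median difference was -0.35, against -0.06 over all tested miRNAs. miR-92a, of the miR-17-92 cluster and known to restrain vessel growth in mouse, was 5.84 to 6.37 in Ha-ras tumours and 6.73 to 7.03 in untreated controls, a difference of -0.78 (SE 0.21, limma adjusted p = 0.0146). miR-27b, known to favour endothelial sprouting, was 5.73 to 5.78 in Ha-ras tumours and 6.05 to 6.49 in untreated controls, a difference of -0.56 (limma adjusted p = 0.0229). miR-378, encoded within the metabolic coactivator gene Ppargc1b, was 4.98 to 5.24 in Ha-ras tumours and 5.47 to 5.50 in untreated controls, a difference of -0.41 (limma adjusted p = 0.0162). The groups did not overlap for any of the 3, and 26% of the tested miRNAs were lower without overlap. These 3 calls were lost with scaling over all mouse probes, where the median of the 6 was 0.09 and the differences were -0.21 for miR-92a, -0.12 for miR-27b and -0.10 for miR-378. They were also lost with quantile scaling (-0.45, -0.37 and -0.32 in the same order), with the deposited values (-0.38, -0.48 and -0.66) and with slide as a fixed block (-0.66, -0.35 and -0.32). With normexp, and with a replicate block, miR-92a passed (limma adjusted p = 0.0332 and 0.0368), while miR-27b (0.163 and 0.0604) and miR-378 (0.191 and 0.0509) did not. They were also lost without Ha-ras replicate 1 (limma adjusted p 0.0632 to 0.0633) and without untreated replicate 2 (limma adjusted p 0.0596 to 0.0832). Without Ha-ras replicate 2, miR-27b and miR-378 were lost (limma adjusted p = 0.0658 and 0.0679), and without untreated replicate 3, miR-27b (limma adjusted p = 0.0956). miR-221, known from human endothelial cells for restraining their migration, was 5.92 to 6.24 in Ha-ras tumours and 5.36 to 5.68 in untreated controls, without overlap. Of the tested miRNAs, 16.7% were higher without overlap. The miR-221 difference was 0.53 (limma adjusted p = 0.0549), and it passed with scaling over all mouse probes (1.09, limma adjusted p = 0.0103). With quantile scaling 1 of the 6 was called higher. miR-221 was not called in 13 runs with 1 array left out (limma adjusted p 0.0241 to 0.188 over all such runs). The endothelial miR-126-3p differed by -0.30 (limma adjusted p = 0.141). In Ctnnb1 tumours against phenobarbital controls, and in phenobarbital against untreated controls, 0 of the 6 passed limma's test after adjustment, where 8 of all 96 miRNAs passed in the Ctnnb1 comparison and 0 of 96 between controls. By limma's unadjusted p under 0.05, those counts over all miRNAs were 21 and 6. Between the tumour kinds, where 13.5% of the tested miRNAs were higher and 16.7% lower in Ha-ras tumours, miR-221 was higher by 0.50 (limma adjusted p = 0.0380). There miR-27b and miR-92a were lower, with differences of -0.52 (limma adjusted p = 0.0188) and -0.75 (limma adjusted p = 0.00982). The miR-27b call between tumour kinds was lost without Ha-ras replicate 1 (limma adjusted p = 0.0547) or 2 (0.0837), and the miR-92a call likewise (0.0515 and 0.0658). Scaled over all mouse probes, the differences were -0.10 for miR-27b (limma adjusted p = 0.697) and -0.20 for miR-92a (0.647), and both calls were lost with a replicate block (0.225 and 0.285). miR-27b was lost as well with quantile scaling (0.0624), normexp (0.113) and slide as a fixed block (0.186). The miR-221 call was lost without any 1 of the Ha-ras replicates (limma adjusted p 0.0512 to 0.170) and without Ctnnb1 replicate 1, 2, 3, 4 or 7 (0.0513 to 0.0586). It was lost too with median scaling of the detected probes (0.39, limma adjusted p = 0.117), normexp (0.22, 0.360), the total gene signal (0.0524), all miRNAs detected on an array tested (0.0639), slide as a fixed block (0.186) and a replicate block (0.160).

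Markers of other cells were summed in the same groups, and only the mesenchymal list had called members in the comparisons of tumours with controls. Of its 2 tested miRNAs, miR-199a-3p fell by 1.51 (limma adjusted p = 0.000509) and miR-143 by 0.68 (limma adjusted p = 0.0146) in Ha-ras tumours against untreated controls. In that comparison 19.8% of all tested miRNAs were called lower. The miR-143 call was lost in 3 runs with 1 array left out (highest limma adjusted p 0.0878, without untreated replicate 3). miR-143 was detected on 3 untreated controls and 0 Ha-ras tumours, whose levels were all at the floor of 4.63. It entered the tests only through the untreated controls, where it was high, so its call is a description. miR-199a-3p also fell by 1.16 in Ctnnb1 tumours against phenobarbital controls (limma adjusted p = 0.00187), where miR-130a did not pass. There 8.33% of all tested miRNAs were called lower. Between the control groups 0 of the 2 mesenchymal miRNAs were called, and 0 of all 96 tested miRNAs. Between the tumour kinds 13.5% of the tested miRNAs were higher and 16.7% lower in Ha-ras tumours. There miR-122 was higher by 0.59 (limma adjusted p = 0.0407) and miR-223, of the leukocyte list, differed by -0.82 (limma adjusted p = 0.0188). With 1 array left out, the miR-122 call was lost in 12 runs and the miR-223 call in 2. The summed scaled signal of the mesenchymal and smooth muscle list was 28.9 to 35.2 in Ha-ras tumours, 33.9 to 91.7 in Ctnnb1 tumours, 122 to 144 in phenobarbital controls and 86.4 to 231 in untreated controls. Of its 6 miRNAs, 4 were detected, and miR-145 and miR-214 were not. The endothelial sum, of 2 miRNAs, was 508 to 671 in Ha-ras tumours, 539 to 793 in Ctnnb1 tumours, 791 to 822 in phenobarbital controls and 614 to 761 in untreated controls. The leukocyte sum, with 3 of 5 detected and miR-150 and miR-155 not detected, was 151 to 448 in Ha-ras tumours, 257 to 537 in Ctnnb1 tumours, 357 to 411 in phenobarbital controls and 227 to 454 in untreated controls. The erythroid sum, of 3 miRNAs, was 1488 to 5530 in Ha-ras tumours, 1980 to 4297 in Ctnnb1 tumours, 3365 to 4689 in phenobarbital controls and 1300.0 to 5130 in untreated controls. The hepatocyte sum, with 3 of 3 detected, was 19335 to 26818 in Ha-ras tumours, 11176 to 22478 in Ctnnb1 tumours, 19591 to 23055 in phenobarbital controls and 22162 to 23427 in untreated controls. The part of cell makeup in the miR-130a levels was not tested, and in bulk tissue fewer cells of a type and less RNA per cell cannot be told apart.

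The tested miRNAs whose levels ran most like miR-130a over the 16 arrays, by Pearson's r and as a description, were miR-361 (0.59), miR-106b (0.58), miR-15b (0.58), miR-34a (0.56) and miR-25 (0.54). miR-106b and miR-25 are encoded in 1 cluster. After each group's mean was removed, these values were 0.21 for miR-361, 0.44 for miR-106b, 0.30 for miR-15b, 0.48 for miR-34a and 0.48 for miR-25. With arrays scaled over all mouse probes, without removing group means, these 5 correlations lay between 0.81 and 0.88. With the deposited values r was 0.30 for miR-361 and 0.48 to 0.55 for the others. miR-361 was detected on 11 of 16 arrays, and its levels in untreated controls, 4.63 to 4.70, lay at or close to the floor of 4.63. The miRNAs that ran most opposite were miR-193 (-0.81), let-7b (-0.75) and let-7g (-0.75). After each group's mean was removed, their values were -0.35 for miR-193, -0.16 for let-7b and -0.55 for let-7g. With scaling over all mouse probes the value turned to 0.47 for let-7b and 0.50 for let-7g and was -0.03 for miR-193. All points share the arrays and their scaling.

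**Figure D5:**
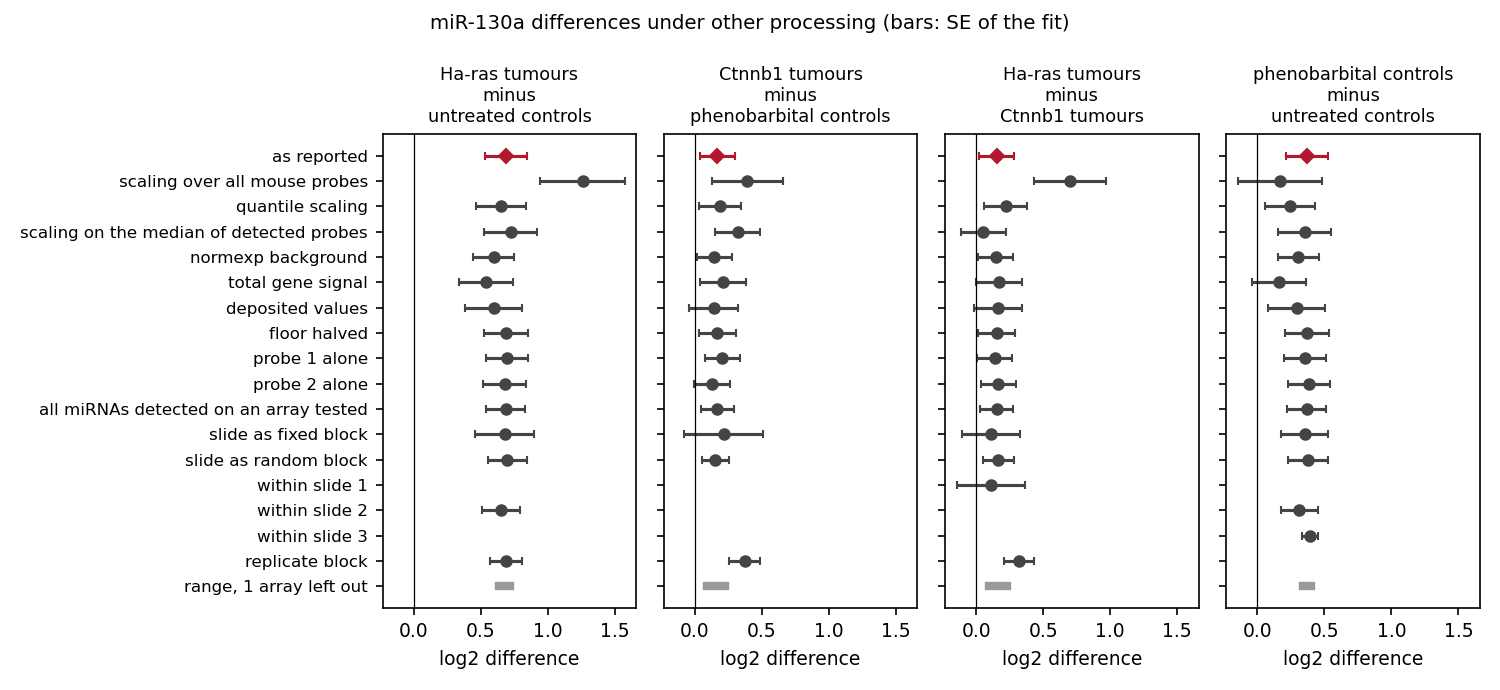
Difference of group means of miR-130a (log2, x axes on 1 shared scale) in the 4 comparisons, with the value as reported as a red diamond, each other processing as a circle with the SE of its fit, and a grey bar for the range when 1 array is left out. The difference of Ha-ras tumours from untreated controls lies between 0.54 and 1.26, and scaling over all mouse probes gives the farthest value.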

How the data were processed

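Per the labels' protocols, 25 ng of miRNeasy-purified total RNA was labelled with Cy3. The authors deposited spot intensity values from Agilent Feature Extraction 10.7.3.1, per the file headers. These background-subtracted signals were not normalised between arrays. The authors also deposited log2 values of 146 mouse miRNAs, with a normalisation method not given in the sources used here, which served as an alternative. The submitters' processing notes name R 2.14.1.

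Spots marked as outliers were left out and spots of a probe averaged. A probe was called detected when the software flagged the majority of its spots well above background. Each array was scaled by its 75th percentile, taken over 117 mouse probes that every array detected, and by 1 common constant. Values under 24.8 (log2 4.63) were set to that floor before log2. A miRNA's level is the mean of its probes. A miRNA was bright enough for testing when it was detected on all arrays of at least 1 group. The 96 such miRNAs were fitted with limma 3.58.1 in R 4.3.3, as 4 group means over 16 arrays, with Benjamini-Hochberg adjustment and a threshold of 0.05. The fit was tested on simulated data. The number of arrays limits the precision.

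The miRNA, the lists and the tests were chosen with earlier results of these data known. Named were miR-130a, the listed seed relatives on the array, the vessel growth miRNAs called in a comparison, the 5 miRNAs most and the 3 least correlated with it, and the marker lists. Alternatives covered scaling, background correction, probe summary, the deposited values, the floor, the filter, slide, the replicate number as a block and leaving out each array. Probe sequences were not used here.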

Additional observations from a re-analysis of the deposited data

Results flagged for a closer look

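One array stood apart in a miRNA of the vessel growth list. Among the 7 Ctnnb1 tumours, let-7f had a log2 level of 9.44 in replicate 5, while the group's median was 10.6, and the gap to the nearest tumour took up a share of 0.783 of the group's range. Among the 18 miRNAs checked in this group it was the only such array, and chance alone gives about 1 in 20. miR-130a had no such array, and Ctnnb1 replicate 5 was at 9.06 in miR-130a.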

How the results depend on the processing

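The difference of miR-130a kept its sign in the 4 comparisons under every alternative run. Scaling over all mouse probes gave 1.26 for Ha-ras tumours against untreated controls, 0.70 for Ha-ras against Ctnnb1 tumours and 0.17 for phenobarbital against untreated controls. For Ha-ras tumours against untreated controls the value was 0.60 with normexp, 0.54 with the total gene signal and 0.60 with the deposited values. For phenobarbital against untreated controls it was 0.25 with quantile scaling, 0.30 with normexp, 0.16 with the total gene signal and 0.29 with the deposited values. Relative to the median of all tested miRNAs, the Ha-ras difference was 0.74 as reported and 0.98 with all mouse probes. With 1 array left out it ranged from 0.63 to 0.72, that of Ctnnb1 tumours against phenobarbital controls from 0.09 to 0.22 (limma adjusted p 0.312 to 0.776), that between tumour kinds from 0.09 to 0.23 and that between controls from 0.34 to 0.40. The causes of these shifts were not tested.

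The count of called miRNAs moved more. For Ha-ras tumours against untreated controls it was 28, and 12 with all mouse probes, 13 with normexp, 9 with the deposited values, 9 with slide as a fixed block and 13 to 33 with 1 array left out (13 without Ha-ras replicate 1 or untreated replicate 2, 18 without untreated replicate 3). For Ctnnb1 tumours against phenobarbital controls it was 8, and 0 with all mouse probes, 4 with the median of detected probes, 2 with normexp, 2 with the deposited values, 1 with slide as a fixed block, 20 with slide as a random block and 5 to 18 with 1 array left out (5 without phenobarbital replicate 6, 18 without Ctnnb1 replicate 1). For the seed relatives, the relatives with a shifted seed and the vessel growth list, without the marker lists, the calls over the 4 comparisons were 6. They were 2 with all mouse probes, 2 with normexp, 1 with slide as a fixed block and 0 to 7 with 1 array left out (0 without Ha-ras replicate 1, 1 without Ha-ras replicate 2, 3 without untreated replicate 2). miR-148b turned to -0.042 in Ha-ras tumours against untreated controls with normexp.

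For same-numbered samples, correlations of the deviations from group means ran from -0.68 to 0.58 for Ha-ras tumours and untreated controls. They ran from -0.77 to 0.24 for Ctnnb1 tumours and phenobarbital controls and -0.18 to 0.24 for the tumour kinds. For samples of unlike number they ran from -0.54 to 0.66, -0.73 to 0.71 and -0.30 to 0.40 in the same order. Within a group of 3 such deviations cancel out, which spreads the correlations to both signs. Whether the numbers pair samples is therefore not settled. With a replicate block the miR-130a difference was 0.69, 0.37 (limma adjusted p 0.112) and 0.32 in these comparisons. The counts were 14 for Ha-ras and 2 for Ctnnb1 tumours against their controls. Such a block compares only same-numbered samples, so for every miRNA the differences of Ctnnb1 tumours rest on part of them. Against phenobarbital controls these were replicates 4, 5 and 6 (miR-130a at 9.12, 9.06 and 9.48). Against Ha-ras tumours they were replicates 1, 2 and 3 (8.92, 8.67 and 8.95). The control groups share no replicate number.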
